A study of Mus musculus with 267 samples.

Results

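The genes described here are *Klf2*, *Klf4*, *Klf6* and *Klf9*, Krüppel-like factor genes of the mouse, followed in bone marrow–derived macrophages (BMDMs) before and after interleukin-4 (IL-4). Their members are every quantified region, and every transcription factor peak, whose centre lay within 50 kb of the start of 1 of the 4 genes (mm10, GENCODE starts). This rule used position alone. It gave 336 of the 423610 rows of 9 tag tables and 1555 of the 1958714 peaks of 54 peak lists. By the mm10 annotation *Klf4* lies on the minus strand at chr4:55527143-55532466, and *Klf2* (chr8:72319033-72321656), *Klf6* (chr13:5861482-5870394) and *Klf9* (chr19:23141226-23168134) lie on the plus strand. The nearest gene start was the member itself for every region of *Klf4*, *Klf6* and *Klf9*. For *Klf2* it was the member for 68 of 94 regions of the strain and time-course tables, and Gm10282 (20 regions) or Ap1m1 (6 regions) for the others. Distances are given from the gene start and are negative upstream of it.

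The 267 samples were chromatin immunoprecipitation sequencing (ChIP-seq) libraries from macrophages grown from the bone marrow of 8- to 12-week-old female mice with macrophage colony-stimulating factor. The inbred strains were C57BL/6J, BALB/cJ, NOD/ShiLtJ, PWK/PhJ and SPRET/EiJ, called C57, BALB, NOD, PWK and SPRET here, each untreated (basal) or given IL-4 at 20 ng/mL for 24 h, with 1 h and 6 h added in C57. A further pair of genotypes was Egr2flfl and LyzMCreEgr2flfl, basal or at 24 h of IL-4. Both carry the floxed *Egr2* alleles, and the second also carries Cre under *LyzM*, a promoter active in myeloid cells, so a deletion by it need not be complete in every cell. Tags were counted in 1000-bp windows for acetylated lysine 27 of histone H3 (H3K27ac, a mark of active promoters and enhancers), di- and trimethylated lysine 4 (H3K4me2 and H3K4me3) and RNA polymerase II (Pol II), and were scaled to 10000000 tags per library. The strain tables hold these marks at open-chromatin regions of each strain, and the genotype tables hold sites where EGR2 was gained at 24 h. ChIP-seq measures chromatin and not RNA, so no level of the factors themselves is given.

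Krüppel-like factors bind GC-rich and CACC elements through zinc fingers at their C terminus. KLF4, best known as a reprogramming factor, and KLF2, a factor of quiescent endothelial and T cells, restrain inflammatory genes in myeloid cells, and KLF4 is known as a target of the IL-4 signal transducer STAT6 in macrophages. KLF6 is known for favouring inflammatory gene expression in macrophages, and KLF9 is a widely expressed target of nuclear receptors such as the glucocorticoid receptor. IL-4 acts through phosphorylated STAT6, which binds paired TTC and GAA elements, and EGR2, itself induced by IL-4, binds GC-rich sites that resemble KLF elements.

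Library totals ran from 4691644 to 29050468 tags with a median of 12936233, so that 1 normalized tag stood for 0.469 to 2.91 reads. Of 6 macrophage marker genes, 6 had a promoter region with basal H3K27ac of 189.6 to 799.8 normalized tags in C57. None of 3 T cell or 2 epithelial markers had a region, and 2 of 3 B cell (2.05 and 88.8 tags), 1 of 3 neutrophil (37.4) and 1 of 2 endothelial markers (472.7) did. The only genotype row near *Egr2*, an intronic site 3741 bp into the gene, does not report on the deletion. The share of all H3K27ac tags that lay in the quantified regions was lower after IL-4 in C57 (59.62 to 65.42% basal, 38.21 to 43.17% at 24 h), and the median log2 difference over all regions was -0.62 in C57, -0.43 in BALB, -0.38 in NOD, -0.27 in PWK and -0.15 in SPRET. The members are read beside these medians. With library size factors from the median ratio over regions, the medians were -0.28, -0.10, -0.16, -0.07 and -0.07.

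The sequences below are shown to let the binding elements be read beside the tag values. They are the central 200 bases of the highest STAT6 peaks at 1 h of IL-4 near *Klf4* and *Klf9*, and of the genotype-table sites with the largest difference and with the highest H3K27ac. All are mm10, plus strand, 5′ to 3′, and each is intergenic or in an intron of the named gene. In the first 3, capitals mark TTC and GAA with 4 bases between them (the 4-base spacer element) or TTCNNNGAA, and in the last they mark the reverse complement of GGGNGTGG.

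Klf4, 34.8 kb upstream, chr4:55567151-55567350: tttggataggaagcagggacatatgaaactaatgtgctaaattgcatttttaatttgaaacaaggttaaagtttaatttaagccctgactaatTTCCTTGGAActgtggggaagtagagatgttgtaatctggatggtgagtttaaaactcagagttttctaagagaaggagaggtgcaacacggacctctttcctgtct
Klf9, 3.2 kb downstream of the start, chr19:23144319-23144518: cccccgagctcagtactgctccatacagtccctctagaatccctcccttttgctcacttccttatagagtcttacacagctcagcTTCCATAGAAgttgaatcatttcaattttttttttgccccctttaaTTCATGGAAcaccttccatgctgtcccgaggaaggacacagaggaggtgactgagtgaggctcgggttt
Klf9, 5.9 kb downstream of the start, chr19:23147027-23147226: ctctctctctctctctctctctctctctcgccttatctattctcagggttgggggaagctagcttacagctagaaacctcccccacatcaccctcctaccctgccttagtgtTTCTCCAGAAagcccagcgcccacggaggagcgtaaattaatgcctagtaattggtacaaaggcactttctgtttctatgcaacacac
Klf6, 27 kb downstream of the start, chr13:5888380-5888579: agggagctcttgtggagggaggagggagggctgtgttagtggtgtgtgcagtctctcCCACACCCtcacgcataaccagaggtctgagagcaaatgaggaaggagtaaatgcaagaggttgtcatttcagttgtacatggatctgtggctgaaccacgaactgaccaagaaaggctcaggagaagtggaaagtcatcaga

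The 4-base spacer element was searched on both strands, which give the same matches, and was present in the central 200 bases of 5 of 24 member STAT6 peaks at 1 h, against 21.12% of all 24374 such peaks. TTCNNNGAA was present in 4 of 24, against 13.24%. The highest STAT6 peaks at 1 h near *Klf2* (3.6 kb) and *Klf6* (14.2 kb), and the STAT6 peak at the *Klf4* region 43.0 kb upstream, held neither. GGGNGTGG, on either strand, was present in 5 of 29 member EGR2 peaks of C57 at 24 h, against 18.98% of 29400, and the EGR element GCGTGGGNG in 1 of 29, against 4.374%. All 4 member promoters matched a RefSeq promoter sequence (GRCm38.p6, 300 bases). None of these held GGGNGTGG, which stands in 17.62% of 32851 promoters, and 1 of them, that of *Klf9*, held TTCNNNGAA. The shares among member peaks stood near those of all peaks.

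The comparison of 24 h of IL-4 with basal cells in the 5 strains asks where IL-4 alters the marks near each gene. Over the 241 member rows of the strain tables, H3K27ac passed the test (limma on log2 of tags + 1, Benjamini-Hochberg adjusted p under 0.05 over all rows of a table) as a rise at 6 rows, 5 of *Klf4* and 1 of *Klf9*, against a rise at 0.57% of all rows. It passed as a fall at 0 member rows, against 0.159% of all rows. At an unadjusted p under 0.05 there were 33 rises and 14 falls, of which *Klf4* gave 17 and 0, *Klf9* 13 and 0, *Klf2* 3 and 7 and *Klf6* 0 and 7, against 14% of all rows in either direction. Limma called 0 of 67742 H3K27ac rows in C57 (14904 at an unadjusted p under 0.05) and 39 in NOD, against 866 rises and 353 falls in BALB. By a fold rule (at least 2.5-fold of means + 1, with 16 tags or more in 1 group), which needs no test, 24 member rows rose, 11 of *Klf4* and 13 of *Klf9*, and 1 row of *Klf2* fell, against 3.08 and 4.5% of all rows. The cut of 2.5-fold is that of the study, which asked it of H3K27ac and Pol II together at intergenic or intronic regions, whereas here it was asked of each alone and at all regions. For Pol II the test gave 6 rises, 3 each at *Klf4* and *Klf9* (0.591% of all rows), and 0 falls (0.133%), and 35 rises and 5 falls at an unadjusted p under 0.05 (9.72% of all rows, either direction). The fold rule, with a minimum of 8 tags, gave 17 Pol II rises, 7 at *Klf4*, 9 at *Klf9* and 1 at *Klf6* (2.72%), and 0 falls (1.14%). The genes thus fell into a pair whose surrounding regions rose, *Klf4* and *Klf9*, and a pair, *Klf2* and *Klf6*, at which no region rose in H3K27ac by either criterion.

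The median log2 difference of H3K27ac over the regions of *Klf4* was 0.74 in C57, 1.14 in BALB, 1.13 in NOD, 1.04 in PWK and 0.94 in SPRET. For *Klf9* it was 0.95, 0.92, 1.07, 0.23 and 0.90 in the same order. For *Klf2* it was -0.70, -0.75, -0.53, -0.24 and 0.16, and for *Klf6* -0.77, -0.47, -0.34, -0.14 and -0.15. The median of all rows has the same sign as those of *Klf6* in every strain. Less that median, the *Klf6* medians lay between -0.16 and 0.13 and the *Klf2* medians between -0.33 and 0.32. Under median-ratio factors the signs were the same for *Klf2*, *Klf4* and *Klf9*, whereas the *Klf6* median in PWK turned to 0.06. With edgeR the PWK median turned for *Klf6* and, from -0.24 to 0.0019, for *Klf2*. The groups did not overlap, with every 24 h library above every basal one, at 24 of 40 *Klf4* rows and 17 of 53 *Klf9* rows, against 16.3% of all rows. Every 24 h library was below every basal one at 26 of 78 *Klf2* and 17 of 70 *Klf6* rows, against 28.3% of all rows, which is near the shares of these genes (33.3 and 24.3%).

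**Figure D1:**
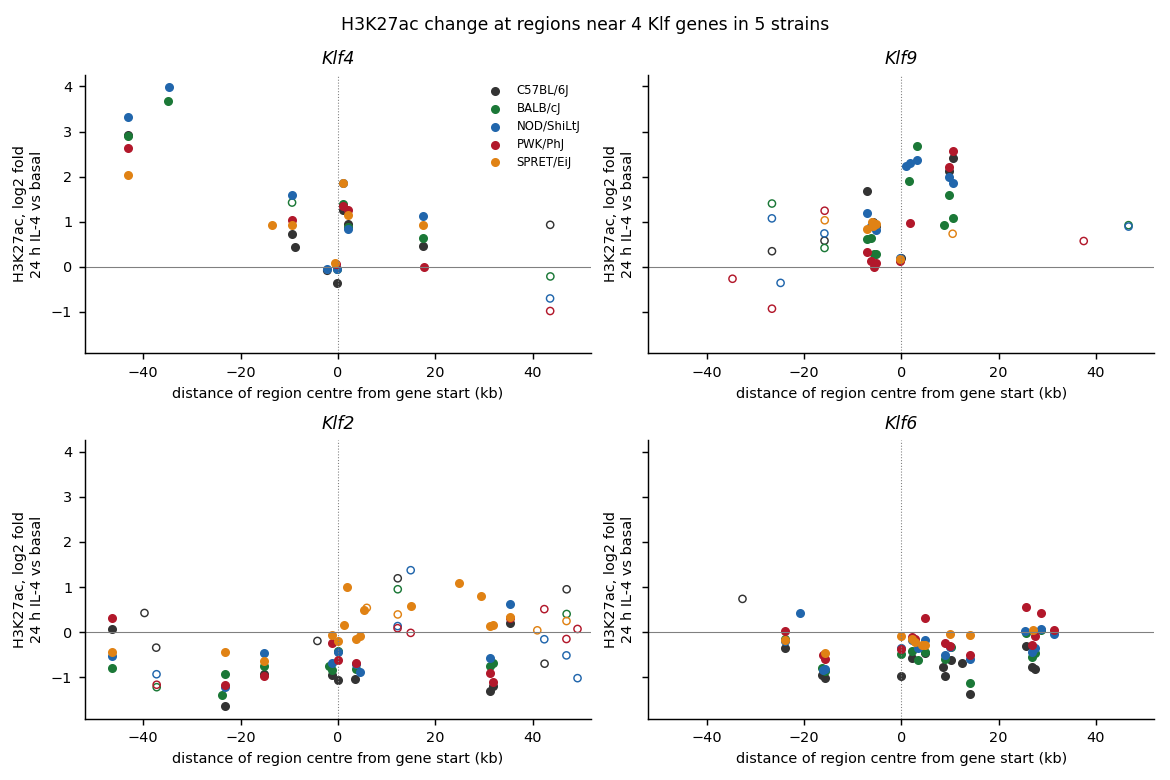
Log2 fold of H3K27ac (24 h of IL-4 against basal, on means of 2 libraries each) at every region within 50 kb of the 4 genes, by distance of the region centre from the gene start (kb), coloured by strain. Filled points reached 16 normalized tags in 1 group and open points did not, and the highest points are the *Klf4* regions 43.0 and 34.9 kb upstream and the *Klf9* regions 3.1 and 10.5 kb downstream of the start.

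*Klf4*, the factor known to be induced by STAT6, had the largest rises of the 4 genes, and they were at regions far upstream rather than at the promoter. At the region 43.0 kb upstream (C57 chr4:55575001-55576001, intergenic), H3K27ac was 5.43 and 5.70 normalized tags in the basal C57 libraries and 34.8 and 67.6 at 24 h. In BALB it was 5.88 and 4.17 basal and 37.65 and 50.5 at 24 h, and in NOD 6.65 and 3.97 and then 49.2 and 74.9. In PWK it was 18.9 and 20.4 and then 134.0 and 122.2, and in SPRET 11.1 and 16.5 and then 60.8 and 56.0. Every 24 h library stood above every basal library of its strain. The region was named as a largest rise among regions whose libraries did not overlap. In a strain where it was so named, the lack of overlap came with the choice. The log2 differences were 2.92 ± 0.55 (SE) in C57, 2.90 ± 0.56 in BALB, 3.32 ± 0.58 in NOD, 2.65 ± 0.47 in PWK and 2.03 ± 0.42 in SPRET. Limma adjusted p-values were 5.19e-05 in BALB, 0.0177 in PWK and 0.0246 in SPRET, and 0.112 in C57 and 0.0839 in NOD. Left with 1 library in a group, the call was lost in PWK without either 24 h library (2.58 and 2.71) and in SPRET without any 1 of its 4 libraries (1.77 to 2.29). The basal level in PWK, near 20 tags, was the highest of the strains, and no test between strains was made.

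Another *Klf4* region, 34.9 kb upstream in BALB (chr4:55566898-55567898) and 34.8 kb in NOD, contains the STAT6 peak whose sequence is printed for *Klf4*. In BALB it is listed as open chromatin at 24 h only, and the region tables of C57, PWK and SPRET have no row there. H3K27ac was 5.14 and 2.38 tags in basal BALB and 74.55 and 43.35 at 24 h, a log2 difference of 3.67 ± 0.56 (adjusted p = 3.79e-08). In NOD it was 9.14 and 3.18 and then 106.3 and 97.9 (3.98 ± 0.61, adjusted p = 0.0538). Pol II also rose there in BALB, from 0, 0 and 4.38 to 6.39 and 21.4 tags (2.88 ± 0.79, adjusted p = 0.0428, limma). This call was absent with edgeR, DESeq2, median-ratio factors and a replicate block. The value of 6.39 comes from the smallest library, of 4691644 tags in total, so it rests on few reads. In NOD, Pol II was 0.65 and 1.37 and then 16.96 and 16.9 (adjusted p = 0.219). In both strains this was the *Klf4* region with the largest H3K27ac difference. Entry through open chromatin at 24 h alone, as in BALB, favours a rise, so this rank is a description.

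Inside the gene, at an intronic region 1.0 kb downstream of the start (C57 chr4:55530983-55531983, chosen after its values were seen), H3K27ac was higher in each 24 h library than in the basal libraries of the same strain. It was 23.75 and 34.9 and then 68.8 and 71.5 in C57, 14.7 and 28 and then 53.5 and 57.2 in BALB, and 14.96 and 18.3 and then 69.4 and 56.85 in NOD. It was 39.5 and 60.3 and then 124.6 and 126.0 in PWK, and 47.9 and 63.9 and then 260.95 and 158.3 in SPRET. Only the SPRET difference passed the test (1.86 ± 0.37, adjusted p = 0.0181, limma). Pol II at this region rose in SPRET, from 45.5, 38.8 and 54.4 to 130.1, 99.0 and 149.6 tags (1.42 ± 0.24, adjusted p = 0.0192), and in BALB, from 22.4, 24.9 and 9.85 to 100.2 and 107.9 (2.49 ± 0.65, adjusted p = 0.0251). In C57, with 4 basal and 3 treated libraries, Pol II overlapped between the groups (22.3 to 56.8 basal and 24.1 to 60.3 at 24 h). In PWK it was 26.8, 39.9 and 36.4 and then 48.2, 70.0 and 119.7 (1.10 ± 0.34, adjusted p = 0.148), and the adjusted p was 0.000608 with a block for the replicate number. Replicate numbers paired the Pol II libraries of C57, PWK and SPRET (their deviations from the group means correlated), and with that block the region 43.0 kb upstream also gained Pol II in PWK (adjusted p = 0.000203) and SPRET (0.0120), although no library there reached 11 tags.

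The *Klf4* promoter region (C57 chr4:55532237-55533237) had high H3K27ac, and none of its differences passed the test. It was 510.2 and 221.8 in basal C57 and 394.7 and 175.9 at 24 h, and the 2 libraries of each group differed by more than the groups did. Across the 5 strains its log2 difference lay between -0.35 and 0.07, and the lowest adjusted p was 0.717. Pol II at the promoter was 146.8 to 422.9 tags in basal C57 and 184.7 to 425.1 at 24 h, which overlap. The strongest distal region of C57, 8.9 kb upstream and overlapping a region 9.4 kb upstream, had 39.35 and 25.7 and then 32.3 and 57.75 tags of H3K27ac (0.43 ± 0.51, adjusted p = 0.634).

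*Klf9*, the nuclear receptor target gene, gained marks within its own gene body. At the intronic region 3.1 kb downstream of the start (BALB chr19:23143871-23144871), which holds the printed STAT6 peak with both spacings of the STAT element, H3K27ac in BALB was 0.73 and 4.17 tags basal and 14.3 and 22.9 at 24 h (2.68 ± 0.60, adjusted p = 0.00130). Pol II there was 4.47, 5.34 and 3.28 and then 29.8 and 41.3 (2.77 ± 0.66, adjusted p = 0.00860), and this call was lost with median-ratio factors (2.46), with a replicate block (2.62), and without 24 h replicate 1 (2.997), 24 h replicate 2 (2.54) or basal replicate 3 (2.62). In NOD, H3K27ac was 3.32 and 3.18 and then 15.2 and 28.7 (2.37 ± 0.60, adjusted p = 0.198). The H3K27ac call in BALB was lost without 24 h replicate 2 (2.36) or basal replicate 1 (1.89). The strain tables of C57, PWK and SPRET have no row at this place. In BALB, where the region is listed as open at 24 h only, edgeR gave an adjusted p of 0.0452 for H3K27ac on the recovered reads. Such entry through the 24 h libraries favours a rise.

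At the region 10.5 kb downstream, also intronic (C57 chr19:23151258-23152258), H3K27ac was 2.71 and 4.28 and then 19.5 and 26.25 in C57 (2.42 ± 0.55, adjusted p = 0.117) and 5.15 and 4.70 and then 40.4 and 28.6 in PWK (2.56 ± 0.61, adjusted p = 0.0825). In BALB it was 9.55 and 7.74 and then 17.3 and 21.4, and in NOD 2.49 and 4.76 and then 9.40 and 24.8. SPRET alone had overlapping groups, 4.27 and 1.32 and then 3.53 and 6.46 tags (0.73 ± 0.67). Whether the difference in SPRET is smaller than in the other strains was not tested. None of the 5 passed the limma test in the strain tables.

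Pol II in the *Klf9* gene body of BALB rose at 2 further intronic regions. It was 14.7, 52.8 and 12.03 basal and 100.2 and 150.8 at 24 h at 1.6 kb (2.48, adjusted p = 0.0270, limma), and 1.92, 11.9 and 1.09 and then 19.2 and 29.4 at 9.8 kb (2.53, adjusted p = 0.0339, limma). Neither was called with edgeR, DESeq2, median-ratio factors or a replicate block. The all-row median of Pol II in BALB was 0.40, the largest of the strains, and with median-ratio factors the count of member Pol II calls over the 5 strains was 1 in place of 6. In PWK the region at 1.7 kb had 28.2, 85.3 and 48.5 Pol II tags and then 97.8, 165.9 and 161.6, which passed with the replicate block (adjusted p = 9.16e-08). At the *Klf9* promoter (C57 chr19:23140568-23141568) Pol II was 62.6 to 91.1 tags in basal C57 and 98.0, 120.6 and 191.1 at 24 h, so that the groups did not overlap, but the difference did not pass (0.76 ± 0.33, adjusted p = 0.509, limma). H3K27ac at the promoter was 90.2 and 145.5 and then 118.0 and 144.4 in C57, and its log2 difference was 0.12 to 0.20 in the 5 strains. At the strongest distal *Klf9* region, 5.8 kb upstream, C57 had 78.7 and 262.4 and then 219.0 and 380.0 tags (1.00 ± 0.60, adjusted p = 0.357).

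**Figure D2:**
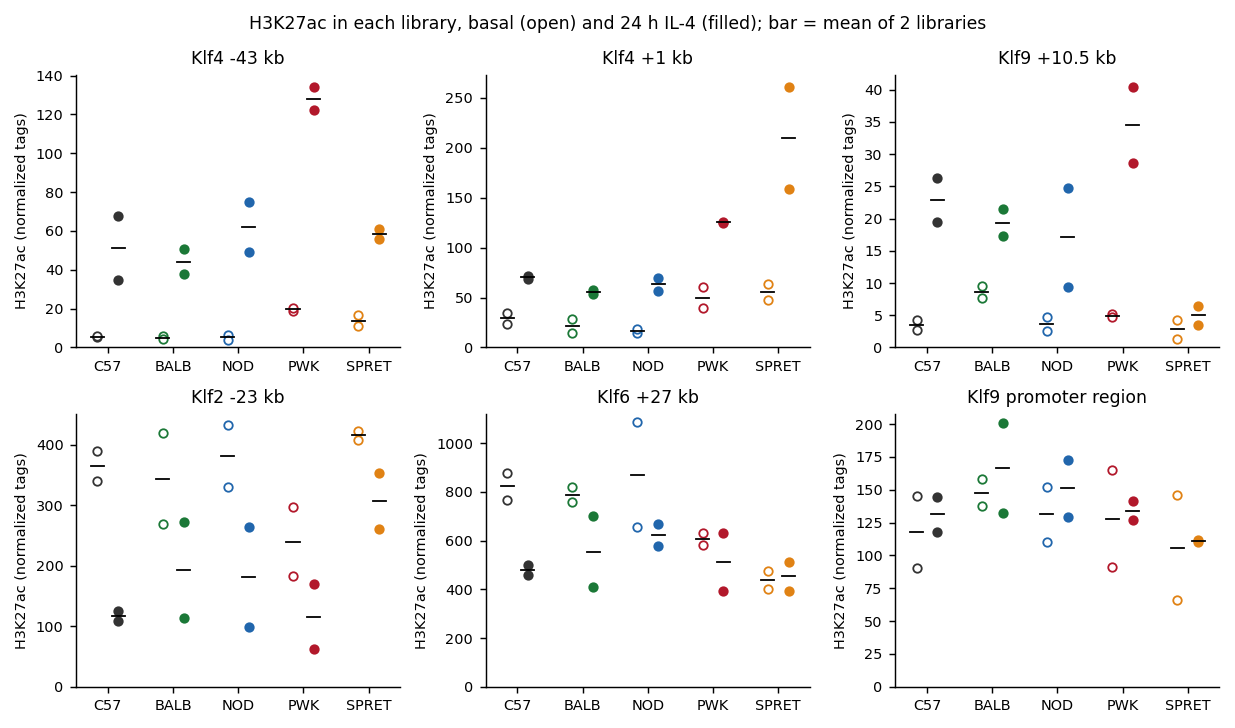
H3K27ac (normalized tags, linear axes from 0) in each library at 6 member regions, basal (open points) and at 24 h of IL-4 (filled points) in 5 strains, with a bar at the mean of the 2 libraries. The basal and treated points do not overlap in any strain at *Klf4* 43.0 kb upstream and 1.0 kb downstream, overlap in SPRET alone at *Klf9* 10.5 kb, and lie lower at 24 h at *Klf2* 23.2 kb upstream in C57, NOD, PWK and SPRET. *Klf4* 43.0 kb and *Klf9* 10.5 kb were named by a rule that asks for no overlap, and *Klf4* 1.0 kb after its values were seen.

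*Klf6*, a factor tied to inflammatory gene expression, had the highest H3K27ac of the 4 genes and no limma call at 24 h in the strain tables without a replicate block. With that block, not taken as a pairing for strain H3K27ac, H3K27ac fell at 12 *Klf6* regions in C57 and 2 in NOD. The promoter region was among those of C57 (adjusted p = 9.67e-07, limma). The share of all rows called with the block is not given here. Its promoter region (C57 chr13:5860824-5861824) had 900.3 and 610.4 tags in basal C57 and 471.95 and 299.9 at 24 h (-0.98 ± 0.35, adjusted p = 0.185). Basal libraries gave 872.3 and 563.6 tags in BALB and 807.1 and 600.1 in NOD, while PWK had 700.4 and 630.3 and SPRET 677.1 and 551.8, and in these 4 strains the basal and 24 h libraries overlapped. At the strongest distal region, 26.9 kb downstream of the start (C57 chr13:5887878-5888878, intergenic), C57 had 766.6 and 878.5 and then 458.4 and 501.4 (-0.77 ± 0.27, adjusted p = 0.173). BALB had 758.4 and 818.6 and then 701.05 and 408.3, and SPRET 400.1 and 474.8 and then 512.2 and 394.15. The C57 values at both regions were lower at 24 h without overlap, where the all-row median was -0.62. The part of the lower share of tags in regions at 24 h in this difference was not tested. Pol II at the *Klf6* promoter was 710.9 to 1110.5 tags in basal C57 and 570.8 to 793.7 at 24 h. With the replicate block, Pol II in PWK passed as a rise at 2 of the intergenic regions downstream, from 9.88, 29.4 and 11.4 to 26.6, 58.2 and 41.9 tags at 25.5 kb (adjusted p = 0.000229) and from 4.23, 13.99 and 11.4 to 16.5, 42.0 and 23.95 at 28.7 kb (adjusted p = 0.000990).

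*Klf2*, the quiescence factor, had the only member fall of H3K27ac at 24 h by the fold rule in the strain tables. At the region 23.2 kb upstream (C57 chr8:72295346-72296346, intergenic), C57 had 388.7 and 340.1 tags of H3K27ac basal and 124.8 and 108.3 at 24 h (-1.64 ± 0.32, adjusted p = 0.114, limma). Pol II there was 98.0, 105.1, 132.9 and 106.3 basal and 48.0, 51.0 and 51.3 at 24 h (-1.12 ± 0.31, adjusted p = 0.155). In NOD, H3K27ac was 432.2 and 330.2 and then 263.3 and 99.1, in PWK 297.0 and 182.4 and then 169.0 and 62.0, and in SPRET 422.3 and 407.6 and then 352.6 and 260.6. In BALB the groups overlapped, 419.6 and 268.1 basal and 271.8 and 113.4 at 24 h. Each of the 4 other strains thus had both 24 h libraries below both basal ones. None of the 5 differences passed the test without a replicate block, and the all-row median in C57 was -0.62. With that block, not taken as a pairing for strain H3K27ac, the region fell in C57 (limma, adjusted p = 2.59e-09) and NOD (0.000345). The block called H3K27ac falls at 7 *Klf2* regions in C57, 2 in NOD and 1 in PWK, and a rise at 1 in SPRET. The share of all rows called with the block is not given here, so these counts are not read as a trait of *Klf2*.

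At the *Klf2* promoter region (C57 chr8:72318511-72319511) H3K27ac was 239.5 and 186.8 tags in basal C57 and 98.5 and 103.0 at 24 h (-1.06 ± 0.35, adjusted p = 0.163), while in BALB, NOD and SPRET the groups overlapped. Pol II at the promoter was 372.5, 487.9, 597.0 and 329.1 and then 295.5, 298.5 and 273.2 in C57, and 578.6, 679.9 and 577.1 and then 696.3, 701.2 and 611.3 in SPRET. Downstream of the start, Pol II in SPRET was higher at 24 h. At 1.2 kb it was 127.7, 150.75 and 187.4 basal and 327.0, 249.5 and 288.1 at 24 h, and with the replicate block it passed there (adjusted p = 0.00202) and at 1.9, 4.5, 5.4 and 5.9 kb. With the same block Pol II fell 23.2 kb upstream in SPRET (-0.53, adjusted p = 0.0464) and in PWK (-1.04, adjusted p = 0.000831). Over all members this block gave 8 Pol II rises and 1 fall in PWK, and 8 rises and 3 falls in SPRET, against 0 calls and 1 call without it. The share of all Pol II rows called with it is not given, so these counts are not read as a trait of the members.

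H3K4me2 fell by the test at 1 member row, against a fall at 0.0183% and a rise at 0.14% of all rows, and this was the *Klf4* region 1.0 kb downstream of the start in C57. It had 173.15 and 223.1 tags basal and 72.8 and 47.6 at 24 h (-1.72, adjusted p = 0.0140), while H3K27ac at the same region was higher at 24 h in both libraries. The edgeR and DESeq2 counts of such calls were 0, and limma called 0 H3K4me2 rows without C57 basal replicate 1, basal replicate 2 or 24 h replicate 2, and 26 without 24 h replicate 1. At an unadjusted p under 0.05, H3K4me2 was lower at 43 and higher at 7 of the 241 member rows, against 16.5% of all rows in either direction. The all-row medians of H3K4me2 were -0.79 in C57, -0.67 in BALB, -0.34 in NOD, -0.20 in PWK and -0.54 in SPRET, and between -0.10 and -0.03 with median-ratio factors. H3K4me3, the promoter mark, passed at 0 member rows (0.0115% of all rows, either direction). At an unadjusted p under 0.05 it was higher at 20 and lower at 4 member rows, against 8.7% of all rows in either direction, and edgeR and DESeq2 each called 5. At the *Klf4* promoter of C57 it was 409.8 and 438.3 tags and then 374.6 and 340.2, and at the *Klf2* promoter 371.2 and 398.8 and then 238.3 and 297.3 (-0.53 ± 0.15, adjusted p = 0.185).

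The C57 time course asks when these differences appear. It shares 11 libraries with the C57 strain table, so its 24 h values are the same measurements in a fit with more groups, and its contrasts share the basal libraries. In it, limma called 10 changes of H3K27ac at 8 member regions. At 1 h, 5 member regions fell, 4 of *Klf2* and 1 of *Klf6*, against 8.36% of all 77955 rows. At 6 h, 2 rose (2.67% of all rows) and 1 fell (2.46%), and at 24 h 2 rose (1.13%). Over the 51 member regions, 14 had an unadjusted p under 0.05 at 1 h, 23 at 6 h and 8 at 24 h, against 31.3, 20.2 and 17.1% of all rows. The 1 h libraries had only 20.54 and 43.95% of their H3K27ac tags in regions, against 63.77 to 69.72% in basal cells, and the all-row median at 1 h was -1.08, or -0.30 with median-ratio factors.

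The *Klf2* promoter region had 238.8 and 184.7 tags basal, 60.3 and 36.8 at 1 h, 89.3 and 89.5 at 6 h and 100.2 and 101.1 at 24 h. All treated libraries lay below both basal ones, and those at 1 h were the lowest. The fall at 1 h was -2.13 ± 0.54 (adjusted p = 0.0253, limma), and it was no longer called with median-ratio factors (adjusted p = 0.0705), with edgeR, or without any 1 of the basal or 6 h libraries. The other *Klf2* regions that fell at 1 h were 1.2 kb upstream (163.5 and 154.0 to 54.1 and 33.7, adjusted p = 0.0402), 3.6 kb downstream (242.9 and 341.55 to 92.8 and 65.75, adjusted p = 0.0406) and 31.2 kb downstream (175.7 and 333.7 to 52.6 and 66.8, adjusted p = 0.0475). The last was also lower at 6 h, with 54.7 and 46.9 tags (-2.24, adjusted p = 0.0429). The *Klf6* region that fell at 1 h lay 9.0 kb downstream of the start, at the end of the gene (573.3 and 550.5 to 214.1 and 86.1, adjusted p = 0.0379). At the *Klf6* promoter H3K27ac was 899.6 and 618.2 basal, 480.8 and 144.9 at 1 h, 603.75 and 384.6 at 6 h and 475.35 and 298.6 at 24 h (adjusted p = 0.128 at 1 h). With median-ratio factors or edgeR none of these 5 falls at 1 h was called, and DESeq2 called only those at the *Klf2* promoter and the *Klf6* region. The part of the low share of tags in regions at 1 h in these falls was not tested. A *Klf6* rise that the main limma fit did not call lay 32.6 kb upstream at 6 h. EdgeR gave 2.32 there (adjusted p = 0.0400) and DESeq2 2.36 (adjusted p = 0.0148).

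The *Klf4* and *Klf9* rises that passed the test were at 6 and 24 h. The median log2 difference over the regions of each was already above the all-row median at 1 h, by 1.33 for *Klf4* (1.19 at 6 h and 1.32 at 24 h) and by 1.34 for *Klf9* (2.04 and 2.02). The *Klf4* region 43.0 kb upstream had 5.43 and 5.70 tags basal, 15.5 and 7.57 at 1 h, 30.8 and 53.55 at 6 h and 36.5 and 67.6 at 24 h. It rose by 2.67 ± 0.60 at 6 h (adjusted p = 0.0158) and 2.95 ± 0.60 at 24 h (adjusted p = 0.0173), and its value at 1 h did not pass (0.86 ± 0.60, adjusted p = 0.328). Neither call was made without basal replicate 2, the 24 h call not without 24 h replicate 2 (2.51), and the 6 h call not without either 6 h library (2.28 and 3.06). The *Klf9* region 10.5 kb downstream had 2.71 and 4.28 basal, 13.9 and 4.13 at 1 h, 26.2 and 18.3 at 6 h and 19.5 and 26.25 at 24 h, and it rose at 6 h (2.37 ± 0.63, adjusted p = 0.0360). The *Klf9* region 3.1 kb downstream had 2.71 and 2.85 basal, 12.4 and 5.51 at 1 h, 16.2 and 10.35 at 6 h and 12.7 and 59.7 at 24 h. It rose at 24 h (2.93 ± 0.70, adjusted p = 0.0409), although its 2 libraries at that time were far apart and the call was lost without 24 h replicate 2 (1.86), either basal or either 6 h library. Pol II at the same region was 12.5, 4.01, 4.82 and 4.05 basal, 25.4 in the single 1 h library, 32.9 and 14.1 at 6 h and 32.7, 19.6 and 47.5 at 24 h. All treated Pol II libraries there stood above all basal ones, and the rise at 24 h passed (2.27 ± 0.48, adjusted p = 0.0344), the only member Pol II call of the time course, against 0.503% of all rows. It was lost without any 1 of 7 libraries, 3 of them basal, 1 of 6 h and 3 of 24 h (1.98 to 2.60).

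**Figure D3:**
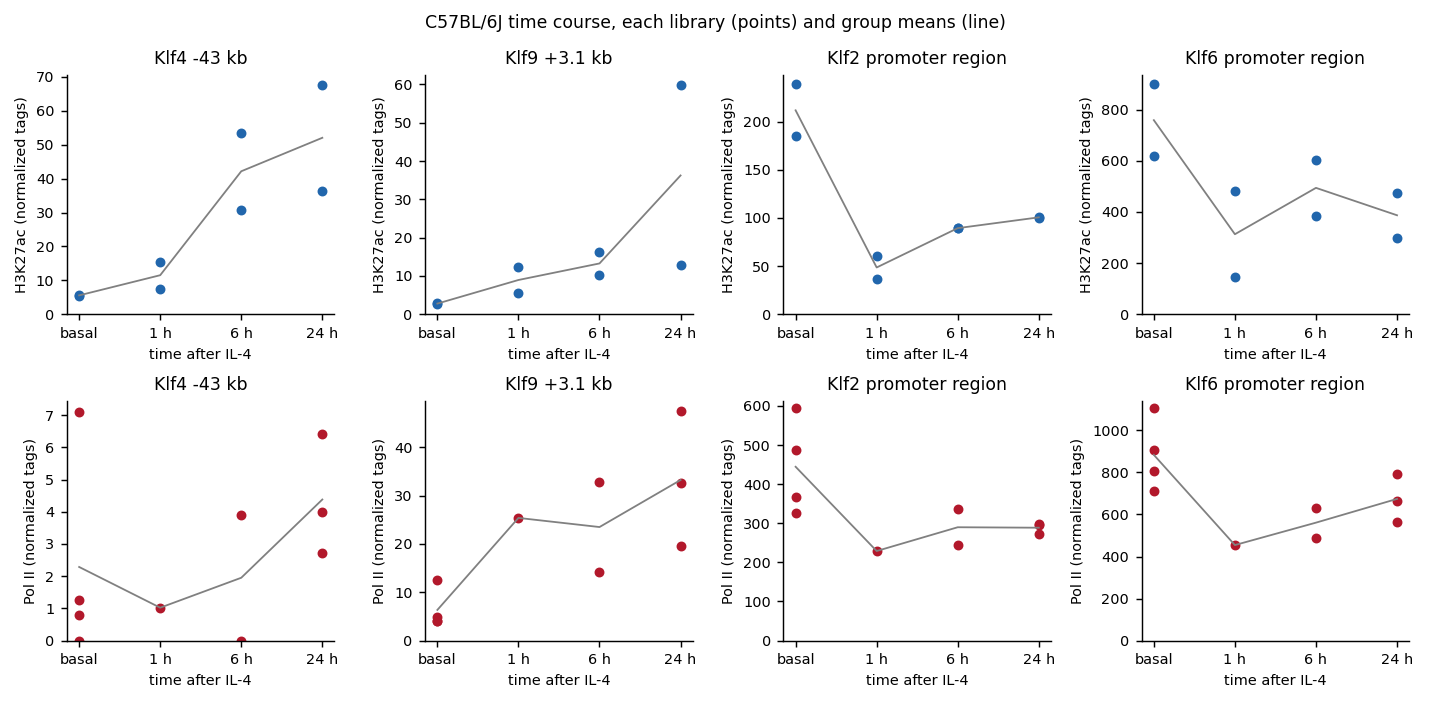
H3K27ac (upper row) and Pol II (lower row) in normalized tags at 4 member regions of C57 macrophages, basal and 1, 6 and 24 h after IL-4, each library a point and the line joining group means, with axes from 0. *Klf4* 43.0 kb upstream and *Klf9* 3.1 kb downstream are highest at 24 h in H3K27ac, whereas the *Klf2* and *Klf6* promoter regions are lowest at 1 h.

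EGR2 ChIP-seq over the same times asks whether EGR2 occupies sites near these genes. Of 30 member sites in the EGR2 table, limma called 0 (0.0% of all rows at the 3 times summed), and at each time 2 had an unadjusted p under 0.05 (3.54, 3.81 and 3.38% of all rows at 1, 6 and 24 h). The table as a whole gave no call, so the values are descriptive. The site with the largest difference at 24 h was the *Klf9* intronic site 5.9 kb downstream of the start, with 4.21 and 0 tags basal, 16.3 and 5.79 at 1 h, 34.9 and 35.1 at 6 h and 49.4 and 18.2 at 24 h (unadjusted p = 0.000449 at 6 h and 0.000772 at 24 h, adjusted p = 0.650 and 0.623). The highest sites were occupied before IL-4. The *Klf9* site 6.2 kb upstream had 158.3 and 295.45 tags basal, 76.8 and 185.2 at 1 h, 261.9 and 320.4 at 6 h and 368.5 and 269.8 at 24 h. The *Klf4* promoter had 122.7 and 239.05 basal, 80.4 and 157.2 at 1 h, 158.9 and 120.2 at 6 h and 293.5 and 202.6 at 24 h. At the *Klf4* site 35 kb upstream, where STAT6 also had its peak, EGR2 had 34.65 and 60.4 basal, 26.2 and 95.5 at 1 h, 68.1 and 153.3 at 6 h and 99.6 and 131.5 at 24 h.

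The genotype tables ask which marks and factors at EGR2 sites depend on *Egr2*. They hold 7 member sites of 4677, 3 near *Klf4*, 3 near *Klf6* and 1 in *Klf9*, and none near *Klf2*. At 24 h of IL-4, H3K27ac was called lower in LyzMCreEgr2flfl at 1 of the 7, the *Klf9* site 5.9 kb downstream (chr19:23146626-23147626), against 23.2% of all sites. In Egr2flfl cells this site had 3.41 and 0 tags basal and 20.1 and 35.3 at 24 h. In LyzMCreEgr2flfl cells it had 7.02 and 2.80 basal and 3.12 and 5.80 at 24 h, so that 24 h Egr2flfl libraries alone stood high. The genotype difference at 24 h was -2.39 ± 0.68 (adjusted p = 0.0185, limma), and the IL-4 rise in Egr2flfl was 3.72 (adjusted p = 0.000767). The interaction of IL-4 with genotype did not pass (-3.78, adjusted p = 0.160), and with a pseudocount of 5 it did (-2.34). The genotype call was lost with median-ratio factors (-1.89), in DESeq2, and without Egr2flfl 24 h replicate 1 (-2.78), Egr2flfl 24 h replicate 2 or LyzMCreEgr2flfl 24 h replicate 1, whereas the IL-4 rise kept its call under all alternatives run.

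In Egr2flfl cells H3K27ac rose with IL-4 at 2 member sites, against 25.6% of all sites, and fell at 1, against 2.54%. Besides the *Klf9* site, the rise was at the *Klf4* site 8.8 kb upstream, from 51.1 and 49.55 to 75.4 and 93.8 tags (0.73, adjusted p = 0.0356). In LyzMCreEgr2flfl cells this site had 46.1 and 39.2 and then 60.3 and 60.4 tags. The all-site median was 0.47, and with median-ratio factors, which bring it to -0.03, this *Klf4* rise was 0.23 and no longer passed. The fall was at the *Klf6* site 14.2 kb downstream, from 121.85 and 122.2 to 84.4 and 59.1 (-0.78, adjusted p = 0.0300), and LyzMCreEgr2flfl cells had 113.3 and 98.65 and then 46.75 and 67.3 there. The *Klf6* site 27 kb downstream, whose sequence is printed with its KLF element, had the highest H3K27ac of the 7, 340.0 and 473.8 basal and 368.9 and 497.75 at 24 h in Egr2flfl, and 380.1 and 521.85 and then 381.3 and 513.1 in LyzMCreEgr2flfl, which overlap. Replicate numbers paired these libraries too, and with that block H3K27ac was also lower in LyzMCreEgr2flfl at 24 h at the *Klf6* site 24.1 kb upstream (99.7 and 116.1 tags, against 136.7 and 179.8 in Egr2flfl, adjusted p = 0.00910) and rose with IL-4 at the *Klf4* site 23.6 kb downstream (adjusted p = 0.0479). H3K4me2 rose with IL-4 in Egr2flfl at 1 member site (8.06% of all sites), the same *Klf4* site 23.6 kb downstream, from 3.60 and 3.14 to 17.2 and 10.7 tags (1.74, adjusted p = 0.0359). That call was absent with median-ratio factors, edgeR and DESeq2, and without any 1 Egr2flfl library.

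Factor binding was counted in 300-bp windows at the same sites. At the *Klf9* site 5.9 kb downstream, STAT6 in Egr2flfl was 2.06 and 0 tags basal and 12.45 and 7.08 at 24 h, that is 2 reads and 18 reads over 2 libraries each, a ratio of 8.41 with a 95% exact counting interval of 2.01 to 74.7. It was the only STAT6 rise among the 7 (2.58, adjusted p = 0.0391, against 11.8% of all sites). The all-site median was 1.34, or 0.26 with median-ratio factors, with which this rise was 1.82 and no longer called, nor was it with edgeR (1.93), DESeq2 (2.06), or without Egr2flfl 24 h replicate 1 (2.21), 24 h replicate 2 (2.94) or basal replicate 2 (1.77). In LyzMCreEgr2flfl cells STAT6 was 2.23 and 1.84 basal and 2.06 and 2.25 at 24 h, at or below the 3-read floor of those libraries. C/EBPβ at this site was 2.61 and 7.35 basal and 10.3 and 8.12 at 24 h in Egr2flfl, and 0 in all 4 LyzMCreEgr2flfl libraries. At 24 h this was at least 7.51-fold lower in LyzMCreEgr2flfl, taking 3 reads over the group as the floor, and was called (adjusted p = 0.0183, against 8.25% of all sites), while the all-site median was -1.23 and the call was lost with median-ratio factors, edgeR and DESeq2. PPARγ at the site was 2.74 and 0 basal and 18.4 and 66.2 at 24 h in Egr2flfl, and 5.32 and 17.01 basal and 0.70 and 0 at 24 h in LyzMCreEgr2flfl, which is 60 reads against 1 at 24 h. PPARγ gave no call at any site (0.0%), with an adjusted p of 0.201 for this difference, and 4, 3, 1 and 3 of the 7 member sites had an unadjusted p under 0.05 for IL-4, genotype at 24 h, genotype in basal cells and the interaction, against 20.4, 14.3, 5.82 and 12.9% of all sites. The *Klf9* site thus had low values of every one of these factors in LyzMCreEgr2flfl cells at 24 h, and intervals on reads cover counting error only. Lower values were not particular to this site. The all-site median genotype difference at 24 h was -0.84 for STAT6, -1.76 for PPARγ and -1.23 for C/EBPβ. With median-ratio factors these medians were -0.13, -0.89 and -0.21.

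PU.1, the macrophage lineage factor, was called lower in LyzMCreEgr2flfl at 24 h at 1 member site (9.36% of all sites), 23.6 kb downstream of the *Klf4* start. It had 27.2 and 28.2 tags basal and 34.3 and 41.4 at 24 h in Egr2flfl, and 17.35 and 27.6 and then 13.4 and 20.2 in LyzMCreEgr2flfl (-1.15, adjusted p = 0.0263). It rose with IL-4 at 1 member site (8.19%), 8.8 kb upstream of *Klf4*, from 42.5 and 37.55 to 74.5 and 71.1 tags (0.85, adjusted p = 0.0366). Neither PU.1 call was made with median-ratio factors, edgeR or DESeq2, or without any 1 Egr2flfl library. With the replicate block, STAT6 was lower in LyzMCreEgr2flfl at 24 h at the *Klf4* site 23.6 kb downstream (8.71 and 11.5 tags in Egr2flfl, 3.09 and 0 in LyzMCreEgr2flfl, adjusted p = 0.0425). It also rose with IL-4 at the *Klf6* site 27 kb downstream, from 11.3 and 16.75 to 42.3 and 34.5 (adjusted p = 0.00304), where LyzMCreEgr2flfl cells had 24.5 and 11.9 and then 23.7 and 14.6 tags. For Pol II each group had 1 library at these sites, and the *Klf9* site had 10.85 and 11.1 tags in Egr2flfl and 3.25 and 10.65 in LyzMCreEgr2flfl, basal and 24 h in turn.

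**Figure D4:**
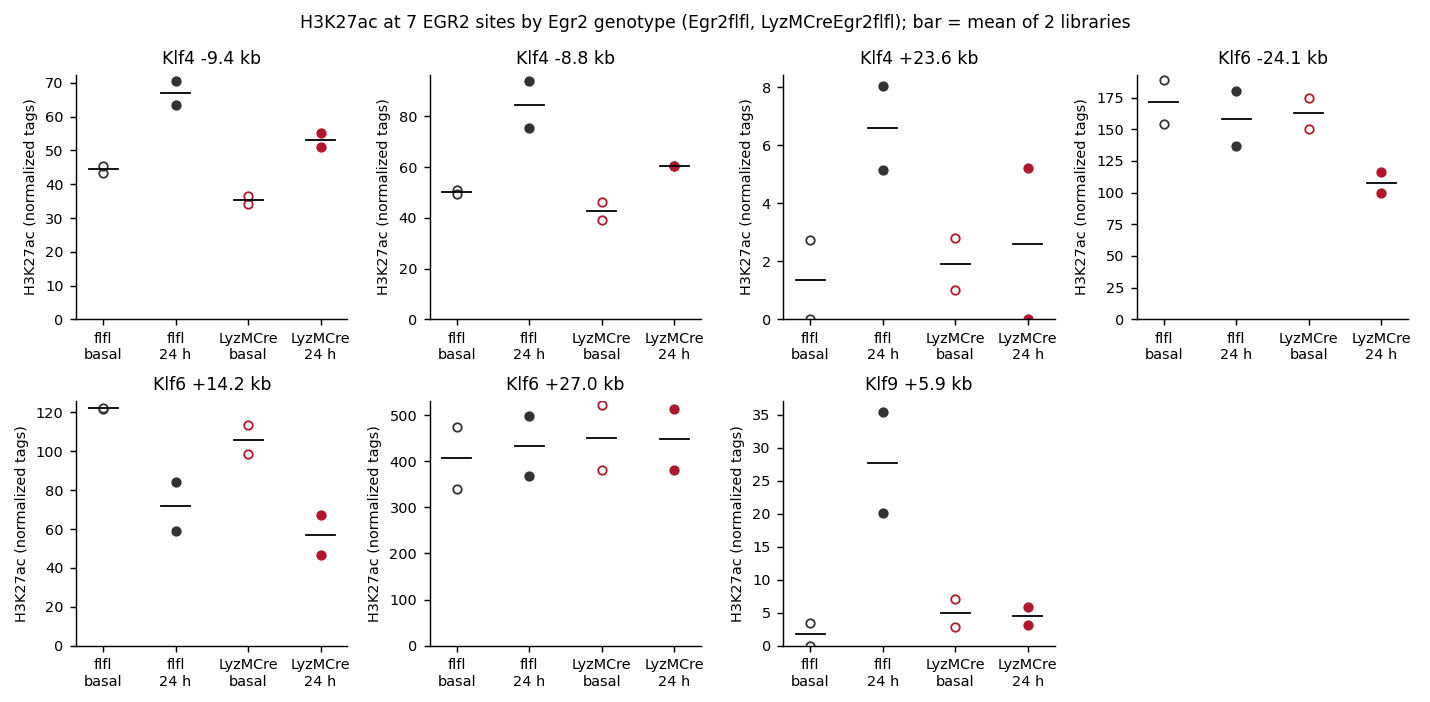
H3K27ac (normalized tags, axes from 0) in each library at the 7 member sites of the genotype tables, basal (open points) and at 24 h of IL-4 (filled points), in Egr2flfl (black) and LyzMCreEgr2flfl (red) cells, with a bar at the mean of 2 libraries. At the *Klf9* site 5.9 kb downstream the 24 h Egr2flfl libraries, at 20.1 and 35.3 tags, stand above all others, while the genotypes overlap at the *Klf6* site 27 kb downstream.

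The peak lists, 1 reproducible list per strain, factor and time, show where factors were found near each gene. Peaks of the 24 h list with no overlap in the basal list are counted as gained. Each list is 1 sample and its length varies, so these counts carry no test. PPARγ, the lipid-sensing nuclear receptor, went from 6 peaks near *Klf4* in the basal lists of the 5 strains to 28 at 24 h, of which 23 were gained, and from 4 to 29 near *Klf9*, of which 27 were gained. In C57 there was no basal PPARγ peak near either gene and 8 near each at 24 h. Near *Klf2* and *Klf6* PPARγ went from 24 to 33 (14 gained) and from 32 to 48 (22 gained). In all, 72.97% of the member PPARγ peaks of C57 at 24 h were gained, against 84.0% of the whole list. The member share was 76.19% in BALB, 73.33% in NOD, 46.67% in PWK and 35% in SPRET. The whole lists of these strains gained 78.9, 74.3, 70.0 and 38.9%, so the member share was below that of the whole list in every strain.

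STAT6 showed the same order. It went from 8 to 22 peaks near *Klf4* (15 gained) and from 8 to 28 near *Klf9* (25 gained), against 34 to 45 near *Klf2* (19 gained) and 60 to 64 near *Klf6* (26 gained). In C57 58.54% of member STAT6 peaks at 24 h were gained, against 41.2% of the whole list. The other strains were nearer their lists, with 52% against 51.5% in BALB, 45 against 39.5% in NOD and 44.74 against 44.3% in SPRET. In PWK the member share was the lower, 62.86 against 67.2%. EGR2 gained 10 peaks near *Klf4*, 12 near *Klf9*, 8 near *Klf2* and 15 near *Klf6* (in C57 55.17% of member peaks, against 72.5%). In NOD alone the member EGR2 share was above that of the whole list (21.05 against 11.1%). PU.1 had the most peaks and, over the 5 strains together, the smallest share gained, 75 and 74 near *Klf2* (19 gained), 45 and 57 near *Klf4* (18), 84 and 89 near *Klf6* (17) and 53 and 64 near *Klf9* (18). Single strains differed, with 21.05% for EGR2 against 35.48% for PU.1 in NOD. In SPRET the shares were 8% for C/EBPβ and 17.54% for PU.1. C/EBPβ went from 52 to 87 peaks near *Klf6*, of which 39 were gained, the largest such count for this factor, and from 26 to 39 near *Klf2* (15 gained), and it gained 11 near *Klf4* and 14 near *Klf9*. In C57 the member shares gained were 31.25% for PU.1 and 48.65% for C/EBPβ, against 18.9 and 53.8% of the whole lists. The members' shares stood on both sides of those of the whole lists.

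**Figure D5:**
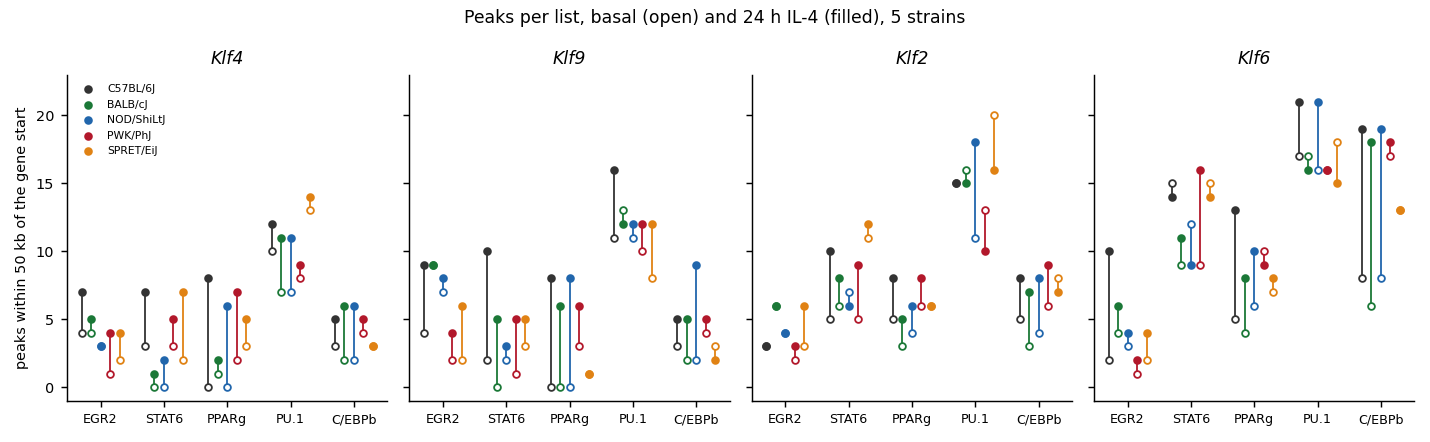
Number of reproducible peaks within 50 kb of each gene start for 5 factors, basal (open points) and at 24 h of IL-4 (filled points), with a line joining the 2 lists of each strain. PPARγ and STAT6 lists gain peaks at *Klf4* and *Klf9* from few basal ones, in C57 from 0 to 8 for PPARγ at each, while PU.1 has many peaks in both lists. Of the whole C57 PPARγ list at 24 h, 84.0% was gained.

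Over the C57 time course, STAT6 peaks near *Klf9* numbered 2 in basal cells, 2 at 1 h, 6 at 6 h and 10 at 24 h, and near *Klf4* 3, 5, 6 and 7. Near *Klf2* they numbered 5, 6, 6 and 10, and near *Klf6* 15, 11, 11 and 14. EGR2 peaks near *Klf6* went 2, 3, 4 and 10, near *Klf9* 4, 5, 6 and 9, near *Klf4* 4, 3, 3 and 7, and near *Klf2* 3 at every time. At 1 h the highest STAT6 peaks had a peak count (as deposited, its scale not stated) of 274 at *Klf2* 3.6 kb downstream, 255 at *Klf4* 34.8 kb upstream, 214 at *Klf6* 14.2 kb downstream and 194 at *Klf9* 3.2 kb downstream. The *Klf4* and *Klf9* peaks at 1 h are the 2 of these 4 whose sequences hold the STAT element with a 4-base spacer, and they lie in regions at which H3K27ac rose in BALB. The *Klf4* region 43.0 kb upstream also rose in BALB, and its STAT6 peak at 1 h holds no such element. The element stood in 5 of 24 member peaks, against 21.12% of all, and a link between element and rise was not tested. The highest EGR2 peaks of C57 at 24 h had counts of 431 at *Klf9* 6.2 kb upstream, 389 at the *Klf4* promoter, 308 at the *Klf6* promoter and 291 at *Klf2* 3.6 kb downstream. PU.1 at *Klf2* 3.7 kb downstream had a count of 620. Near *Klf2* STAT6, EGR2, PU.1 and C/EBPβ thus had their highest C57 peaks at 24 h within the same stretch past the gene's end.

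Of 13 other Krüppel-like factor genes, 9 had a promoter region in C57, and *Klf1*, *Klf12*, *Klf15* and *Klf17* had none. None of the 9 was called for H3K27ac at 24 h in any strain table that holds a promoter region of it. *Klf7* had the highest values, a mean of 1059.4 tags basal and 528.6 at 24 h in C57 (adjusted p = 0.224). *Klf11* fell at 1 h of the time course, from a mean of 137.2 to 31.4 tags (-2.14, adjusted p = 0.0272).

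Promoter H3K27ac over the 8 C57 time-course libraries was also compared between genes, as a description, on log2 of tags + 1 among 9503 genes. The libraries share their low share of tags in regions at 1 h, which all genes have in common. Most like *Klf2* were Spi1, the gene of PU.1, (Pearson r = 0.9932), Mdp1 (0.9898) and Zcwpw1 (0.9897). Most like *Klf6* were Oxsr1 (0.9978), Vcl (0.9958) and Ptprc (0.9957), and most like *Klf4* were Zfp455 (0.9925), Endod1 (0.9903) and Ttk (0.9853). Most like *Klf9* were Tmem50a (0.9724), Clint1 (0.9684) and Tfec (0.9618), while the value of *Klf9* with *Klf2* was 0.2426.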

How the data were processed

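Bone marrow–derived macrophages were profiled by ChIP-seq. The deposited tag signal was made by the authors, who aligned reads with Bowtie2 to mm10 (reads of the other strains through MMARGE), counted tags with HOMER and scaled each library to 10000000 tags, in 1000-bp windows (marks, Pol II), 300-bp windows (factors in the genotype table) or within peaks (EGR2 time course). Windows of neighbouring regions overlap. The authors' peak lists hold a score for each HOMER peak of 200 bp reproducible by IDR between replicates, 1 list per group, and their peak counts are printed as deposited. Of the genotype histone columns, 4 of Pol II matched no sample label and were not used.

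Tags were tested on log2(tags + 1) with limma 3.58.1 (R 4.3.3, trend, no filter, all groups of a table and target sharing 1 spread), with Benjamini-Hochberg adjustment over all rows of a table. Files were read with Python 3.11.15, numpy 2.4.6 and pandas 2.3.3, and plots were made with matplotlib 3.10.9. Whole reads were recovered for 100% of 7268918 values (within 0.1 read), on which edgeR 4.0.16 and DESeq2 1.42.0 were alternatives, beside a pseudocount of 5, filters at 16 tags (H3K27ac, H3K4me2, H3K4me3) or 8, median-ratio factors, a replicate block and leaving out each library. The fits were tested on simulated data. The labels do not say that same-numbered libraries share mice, so p-values measure only the spread between these samples, and intervals cover counting error only.

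The deviations of same-numbered libraries correlated above 0.1 in all pairs for Pol II of C57 (r 0.184 to 0.384), PWK (0.412 to 0.614) and SPRET (0.397 to 0.433), and for genotype H3K27ac (0.179 to 0.412), H3K4me2 (0.104 to 0.239), STAT6 (0.121 to 0.254) and C/EBPβ (0.119 to 0.212), and these were taken as paired. Strain H3K27ac (0.49 to 0.706), H3K4me2 (0.2 to 0.461) and H3K4me3 (0.495 to 0.717) also correlated above 0.1. So did Pol II of BALB (0.36 to 0.443) and NOD (0.54), but none of these was taken as paired. By r alone they met the same cut of 0.1, so their fits without a block may leave out a pairing. The members and gene lists were chosen with earlier results of these data known. Named regions were the promoter region (highest C57 H3K27ac within 1 kb of the start), the strongest distal region, the largest H3K27ac rise or fall past the fold rule without overlap of libraries, matched within 500 bp in other tables, the highest EGR2 site and the one with the largest rise, all genotype sites, and the highest peak of each factor. Comparisons of strains with each other and the 12 input libraries were not analysed here.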

Additional observations from a re-analysis of the deposited data

Results flagged for a closer look

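Among 4 basal C57 Pol II libraries of the time course, 1 library stood apart from the other 3 at a pair of followed regions. At the *Klf6* region 14.1 kb downstream of the start, basal replicate 3 had 66.46 normalized tags. At the *Klf9* region 3.1 kb downstream, basal replicate 1 had 12.48 tags, and the others had 4.01 to 4.82, so that the rise described there at 24 h is measured against 1 higher and 3 lower basal values. Chance sets apart about 1 in 20 such groups, and the cause was not tested.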

How the results depend on the processing

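No call at a named region turned its direction under the alternatives run. The counts below sum rises and falls, so their direction was not followed. The PWK medians of H3K27ac did turn, for *Klf6* with median-ratio factors (0.06) and edgeR (0.15) and for *Klf2* with edgeR (0.0019). With edgeR, the BALB Pol II medians of *Klf2* (0.18 to -0.12) and *Klf6* (0.38 to -0.06) turned. Further medians turned for H3K4me2 (*Klf2*, *Klf6* and *Klf9*), H3K4me3 (*Klf6* and *Klf9*) and EGR2 (*Klf2*, *Klf4* and *Klf6*). None of the 5 member falls of H3K27ac at 1 h was called with median-ratio factors or edgeR, and the interaction at the *Klf9* site was called with a pseudocount of 5 (-2.34). Counts of member calls moved as follows, with the range over leaving out 1 library given last, and where a setting moved a count the cause was not tested. In the strains, H3K27ac past the fold rule was 25, 47 at 2-fold (22 to 36), and Pol II 17, 30 at 2-fold (12 to 22). By limma, H3K27ac was 6, 15 with DESeq2 and 62 with a replicate block (4 to 11, 11 without BALB 24 h replicate 1 or NOD basal replicate 2). Pol II was 6, 1 with median-ratio factors and 29 with the replicate block (1 to 7, 1 or 2 without BALB 24 h replicate 1 or 2 or basal replicate 1 or 3). H3K4me2 was 1, 0 with edgeR, 0 with DESeq2 and 22 with the block (0 to 26, where 25 were called without BALB 24 h replicate 1, 18 and 3 without NOD basal replicate 1 and 2, and 2 to 8 without a SPRET library). H3K4me3 was 0, 1 with a pseudocount of 5, 3 with a filter at 16 tags, 5 with edgeR, 5 with DESeq2 and 20 with the block (0 to 0). In the time course, H3K27ac was 10, 18 with DESeq2 and 41 with the block (0 to 35, with 35 and 20 without 1 h replicate 1 and 2, 1 without either 6 h library, 3 and 0 without basal replicate 1 and 2, and 5 without 24 h replicate 2). Pol II there was 1, 2 with median-ratio factors, 2 with edgeR, 3 with DESeq2 and 4 with the block (0 to 4, with 4 without basal replicate 1). EGR2 was 0, and 2 with the block (0 to 4, with 4 without 1 h replicate 2 and 1 without 6 h replicate 1). By genotype, H3K27ac was 4, 2 with DESeq2 and 6 with the block (1 to 5, with 2 and 1 without Egr2flfl 24 h replicate 1 and 2, and 2 without Egr2flfl basal replicate 1). H3K4me2 was 1, and 0 with a filter at 16 tags, median-ratio factors, edgeR or DESeq2 (0 to 1). STAT6 was 1, 2 with a pseudocount of 5, 0 with median-ratio factors, edgeR or DESeq2, and 3 with the block (0 to 1, with 0 without either Egr2flfl 24 h library or basal replicate 2). PPARγ was 0, and 1 with a filter at 8 tags (0 to 0). PU.1 was 2, 0 with median-ratio factors, 1 with edgeR and 0 with DESeq2 (0 to 3, with 0 without any Egr2flfl library or LyzMCreEgr2flfl 24 h replicate 1, and 1 without its replicate 2). C/EBPβ was 1 and 0 with median-ratio factors (0 to 1, with 0 without any 1 of the 4 libraries at 24 h). With edgeR and DESeq2 the C/EBPβ call was a different one, a fall with IL-4 in Egr2flfl at the *Klf6* site 14.2 kb downstream (-1.14 and -1.04). The PU.1 call with edgeR was also a different one, a fall with IL-4 in Egr2flfl at the same *Klf6* site (-0.50). With the better part of each list by score, peaks gained were 27 for EGR2 (45 over whole lists), 50 for STAT6 (85), 50 for PPARγ (86) and 45 for PU.1 (72). The block was taken as a pairing only for the sets so named under the data processing, and shares of all rows called with it are not given. Same-numbered libraries also correlated in other sets, at r 0.54 for Pol II of NOD (9 calls with the block) and 0.49 to 0.706 for strain H3K27ac. With 2 libraries in every group the 2 pairs gave the same r. Whether any same-numbered libraries share mice is not in the labels. A single library in a group is assumed to vary like the other groups. With 2 libraries a group, low-tag sites are limited by reads, of which 1 tag stood for 0.469 to 2.91.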
